A study of Mus musculus with 8 samples.

Results

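The p53 pathway genes Trp53, Mdm2, Ccng1 and Bax and the cyclin-dependent kinase (CDK) inhibitor genes Cdkn1a, Cdkn1b, Cdkn1c and Cdkn2b were followed in cultured intestinal crypts of WT and MG53-TG mice. These 8 genes were a list of names with no threshold on a measured value, drawn up with earlier results of these data known. Of the 13081 genes with a value, 6 were members placed by both the gene identifier and the exon boundaries in the deposited rows. Bax was placed by its exons alone, so 7 of the 8 had a value, and Cdkn2b is not analysed here because no row lay at its exons. RNA was sequenced from 4 WT and 4 MG53-TG small intestinal organoids, which are epithelial cultures grown from isolated crypts in Matrigel with IntestiCult medium. MG53 is the muscle-enriched ubiquitin ligase TRIM72, encoded by Trim72, and MG53-TG mice overexpress it in the whole body, whereas WT organoids came from littermates without the transgene. The labels give the genotypes as wt and mg53-tg, while the study's own text on crypt organoids also names MG53;Lgr5 mice and Lgr5 littermates, and ages are not given there. No agent was added to either group as labelled, and the labels do not say whether the cultures came from separate animals, so p-values measure the spread between these samples, which may be technical.

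The transcription factor p53, encoded by Trp53, is kept scarce by its own target Mdm2, a ubiquitin ligase that marks it for degradation, and DNA damage or other stress releases it from that control. The p53 that accumulates switches on genes that halt the cell cycle, foremost Cdkn1a, or that lead to apoptosis, such as Bax. CDK inhibitors of the CIP/KIP family (Cdkn1a, Cdkn1b, Cdkn1c) bind cyclin-CDK complexes, those of the INK4 family (such as Cdkn2b) bind the cyclin D kinases, and in the gut p21 and p27 are found mostly in cells that have stopped dividing. Since p53 is mainly controlled at the protein level, the RNA of its gene is not a measure of its activity.

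The unit throughout is FPKM, a count of sequenced fragments scaled to transcript length and to the total of the sample, which the authors gave for single features of transcripts, among them starts and ends. A gene's value was the sum of its start rows, or of its end rows where these were higher. The depth of the samples is unknown, since whole reads could not be recovered, and the start rows summed to between 269837 and 273797 FPKM in WT and between 269094 and 284330 FPKM in MG53-TG. Trim72 had no row in any WT sample and 16.4, 27.4, 31.9 and 36.5 FPKM in the MG53-TG samples, which matched the labels. The 7 epithelial markers summed to 1960 to 2320 FPKM in WT and 1670 to 2170 FPKM in MG53-TG, of which 4 fell (Cdh1, Krt8, Krt18 and Cdx2), Vil1 rose and Epcam and Krt19 did not pass. These 57.1% lower and 14.3% higher stood beside 29.2% and 15.5% of all genes tested. The summed level of 7 stem cell markers was 380 to 558 FPKM in WT and 37.7 to 221 FPKM in MG53-TG, and that of 16 proliferation markers was 720 to 781 FPKM against 158 to 546 FPKM. All 11 enterocyte markers rose, beside 15.5% of all genes tested. MG53-TG samples 3 and 4 stood apart from samples 1 and 2, with proliferation sums of 238 and 158 against 518 and 546 FPKM.

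Cdkn1a has 2 RefSeq promoters, and the start rows described further on fell at both. They are printed here because the upstream window holds a match to the p53 site, which the downstream window lacks. The windows run from 250 bases before to 50 bases after the start on GRCm38.p6, 5′ to 3′ on the gene's strand, and lie at chr17:29090729-29091028 and chr17:29093519-29093818 on the plus strand. The windows of Ccng1 (chr11:40755237-40755536, minus strand) and Trp53 (chr11:69580109-69580408, plus strand) are shown beside them, as the other member window with a p53 site and that of the p53 gene itself. Capitals mark matches to the p53 site, the GC box GGGCGG, the CCAAT box CCAAT and the TATA box TATAAA, on either strand.
Cdkn1a upstream: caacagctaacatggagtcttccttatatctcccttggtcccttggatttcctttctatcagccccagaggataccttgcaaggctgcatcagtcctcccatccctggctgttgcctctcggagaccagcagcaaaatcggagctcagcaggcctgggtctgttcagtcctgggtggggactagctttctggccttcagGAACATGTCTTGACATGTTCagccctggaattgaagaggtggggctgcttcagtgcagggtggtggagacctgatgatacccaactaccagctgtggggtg
Cdkn1a downstream: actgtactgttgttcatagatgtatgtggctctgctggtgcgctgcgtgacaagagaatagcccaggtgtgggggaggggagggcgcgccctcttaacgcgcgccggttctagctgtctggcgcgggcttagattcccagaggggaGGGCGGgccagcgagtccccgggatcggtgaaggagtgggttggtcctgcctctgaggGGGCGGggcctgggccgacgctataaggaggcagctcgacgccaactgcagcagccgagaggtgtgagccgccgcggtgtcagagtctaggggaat
Ccng1: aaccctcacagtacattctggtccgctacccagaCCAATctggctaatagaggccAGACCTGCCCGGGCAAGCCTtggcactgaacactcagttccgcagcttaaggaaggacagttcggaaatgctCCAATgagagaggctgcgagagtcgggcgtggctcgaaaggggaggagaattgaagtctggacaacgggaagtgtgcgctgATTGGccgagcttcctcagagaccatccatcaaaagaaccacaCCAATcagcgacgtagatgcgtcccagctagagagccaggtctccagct
Trp53: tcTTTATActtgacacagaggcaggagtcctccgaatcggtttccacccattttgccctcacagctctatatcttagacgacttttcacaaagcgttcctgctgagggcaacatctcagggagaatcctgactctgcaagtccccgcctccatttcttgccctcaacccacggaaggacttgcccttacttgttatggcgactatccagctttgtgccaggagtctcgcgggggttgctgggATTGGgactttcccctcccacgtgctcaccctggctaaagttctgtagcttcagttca

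The p53 site was searched by name as 2 adjoining stretches of 10 bases each, with the core C and G of each kept and at most 1 mismatch in 20 bases. RefSeq windows were found for 7 of the 8 members, Cdkn1c excepted, with 8 windows in all. The upstream Cdkn1a window held the match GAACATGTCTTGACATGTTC at chr17:29090928-29090947, starting 51 bases before the RefSeq start and with 1 mismatch. The Ccng1 window held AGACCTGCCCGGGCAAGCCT at chr11:40755462-40755481, also with 1 mismatch. Of 32851 RefSeq promoter windows of this length, 22 (0.067%) held such a match. The downstream Cdkn1a window held 2 GC boxes and the Ccng1 window 4 CCAAT boxes. At least 1 GC box was found in 35.7% of all windows and at least 1 CCAAT box in 37.4%. In the Trp53 window a CCAAT box lay 8 bases before the start, and a TATA box lay near the window's far end, a motif of 13.6% of all windows. These matches are letters in a window and were not measured as binding.

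The comparison of MG53-TG with WT asks how RNA levels differ in crypt epithelium that overexpresses MG53. Of the 7 members with a value, 3 fell in MG53-TG and 0 rose. Trp53 fell to 0.54 of its WT level, Cdkn1b to 0.735 and Mdm2 to 0.759, while Cdkn1a, Cdkn1c, Ccng1 and Bax did not pass the test. Across all 10271 genes tested, 44.7% passed at an adjusted p of at most 0.05 (limma, Benjamini-Hochberg), 15.5% higher and 29.2% lower in MG53-TG. Of the 6 members in that fit 3 (50%) were lower and 0 higher, so that 50% in all stood beside 44.7% of all genes. The median log2 fold change over all genes was -0.17, the direction in which the 3 members moved, and median-of-ratios scaling of the samples moved this median by 0.16. Under that scaling 2108 genes were higher and 2091 lower, so the larger share of lower genes depends on the scaling. Of the members, 1 still passed under it, Trp53.

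**Figure D1:**
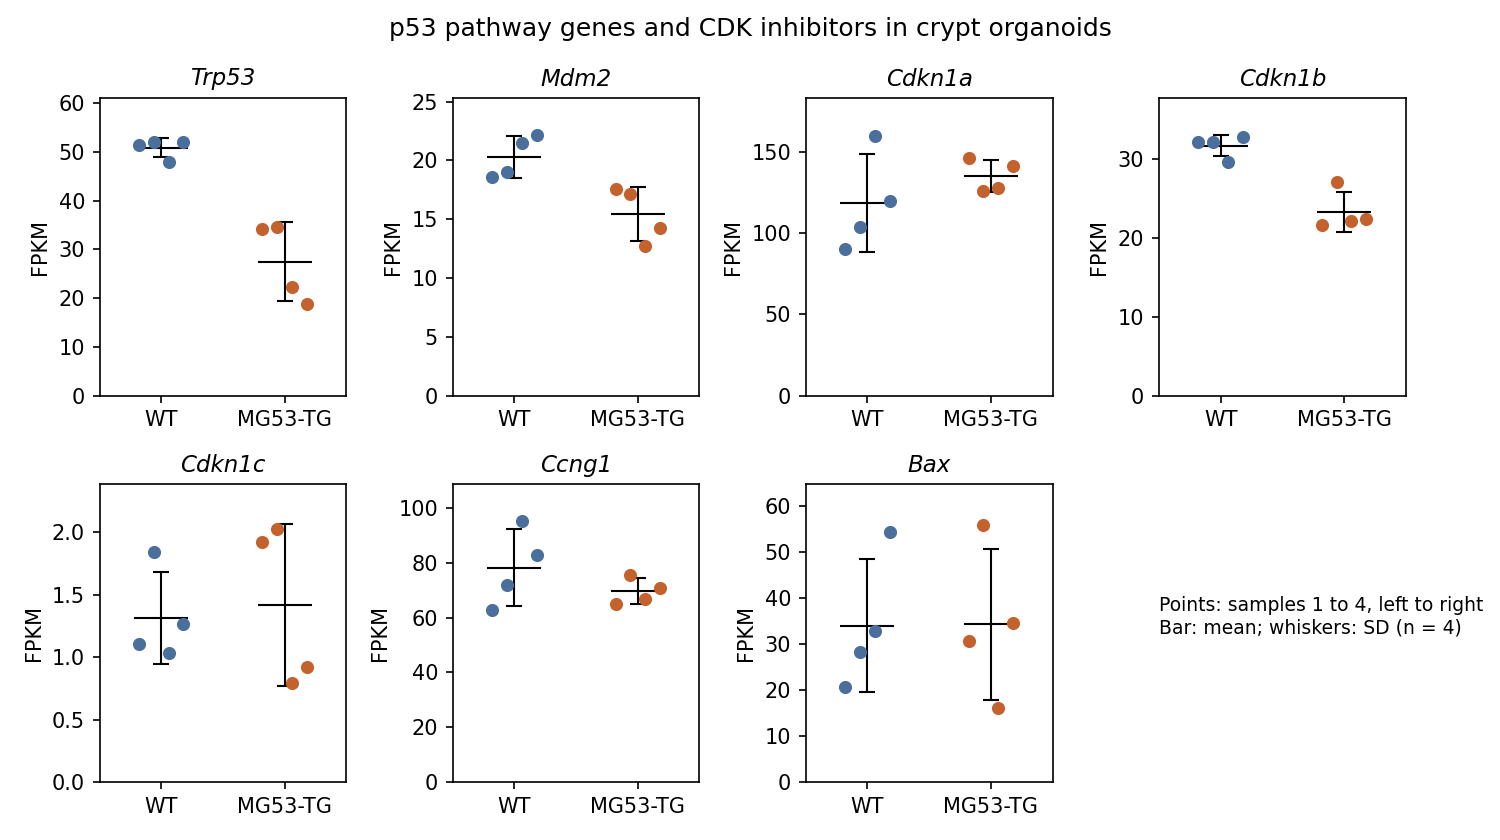
FPKM of the 7 genes with a value in WT (blue) and MG53-TG (orange) organoids, with the samples as points, the mean as a bar and the SD as whiskers (n = 4). The groups do not overlap for Trp53, Mdm2 and Cdkn1b, where MG53-TG is lower, and overlap for the other 4 genes.

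Trp53 (ENSMUSG00000059552, chr11:69580359-69591873, plus strand) encodes p53. Its level was 51.5, 52.0, 47.9 and 52.0 FPKM in WT samples 1 to 4 and 34.2, 34.5, 22.2 and 18.9 FPKM in the MG53-TG samples. Every MG53-TG sample was below every WT sample, the WT samples lay close together, and MG53-TG samples 3 and 4 were the lowest. The means were 50.8 ± 1.97 and 27.5 ± 8.10 FPKM (SD, n = 4), a log2 fold change of -0.91 (SE 0.19, 95% interval -1.34 to -0.48) with an adjusted p of 0.00528, and the two-sided exact permutation test gave 0.0286, the smallest p that 70 relabellings of 4 against 4 samples allow. Of all genes tested, 28.3% were lower and 15.2% higher in MG53-TG with groups that did not overlap. MG53-TG samples 1 and 2 alone, a choice made with the values in view, gave a log2 fold change of -0.55 (adjusted p = 0.00199). The proliferation marker sum followed the same order of groups, and its part in the Trp53 difference was not tested.

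Many genes followed Trp53 across the samples. The 3 protein-coding genes outside the lists whose log2 level was most like that of Trp53 over the 8 samples were Supt16 (Pearson r = 1.000), Smc4 (r = 0.999) and Rpa3 (r = 0.999), a histone chaperone subunit, a condensin subunit and a subunit of the single-strand DNA binding complex RPA. Supt16 stood at 38.4 FPKM in WT and 20.6 FPKM in MG53-TG on average. As many as 1703 of 8373 genes compared had an r above 0.9 with Trp53, so this likeness is shared widely, and the points share the split into 2 groups.

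Trp53 transcripts end in a last exon that can be joined at either of 2 acceptors, 96 bases apart, and the upstream one at position 69591254 gives the alternatively spliced p53 with a different C terminus. The upstream acceptor took 2.69%, 18%, 20.4% and 22.1% of the end rows in WT and 14.3%, 9.92%, 18.4% and 15.9% in MG53-TG. WT sample 1 was the lowest of all, and the groups overlapped. The mean share was 15.8 ± 8.90% in WT and 14.6 ± 3.55% in MG53-TG, which did not pass (exact permutation test, adjusted p = 0.967 over 7 shares tested). In FPKM, the downstream acceptor stood at 50.1, 42.6, 38.1 and 40.5 in WT and at 29.3, 31.1, 17.3 and 14.9 in MG53-TG, without overlap. The upstream acceptor stood at 1.39, 9.36, 9.75 and 11.5 FPKM in WT and at 4.90, 3.43, 3.89 and 2.82 FPKM in MG53-TG, where only WT sample 1 lay below the MG53-TG samples.

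Mdm2 (ENSMUSG00000020184, chr10:117688875-117710758, minus strand), the ubiquitin ligase for p53 and a p53 target, was measured by its end rows. It stood at 18.6, 19.0, 21.5 and 22.1 FPKM in WT and at 17.5, 17.1, 12.7 and 14.2 FPKM in MG53-TG. The groups did not overlap, but the highest MG53-TG sample came close to the lowest WT sample. The means of 20.3 ± 1.77 and 15.4 ± 2.30 FPKM differed by a log2 fold change of -0.38 (SE 0.13, 95% interval -0.67 to -0.10, adjusted p = 0.0349, two-sided exact permutation p = 0.0286). The call was lost under median-of-ratios scaling (log2 fold change -0.20, adjusted p = 0.149), under quantile normalization (-0.24, adjusted p = 0.101), with MG53-TG samples 1 and 2 alone (-0.21, adjusted p = 0.154) and without any of 5 of the 8 samples in turn, WT 2, 3 and 4 and MG53-TG 3 and 4 (-0.41 to -0.30, largest adjusted p = 0.0912).

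Mdm2 has a promoter at its first exon and a second one, through which p53 acts, in its first intron. The only start row lay at the first exon (chr10:117710552-117710714), so starts in the intron had no row of their own. That row stood at 9.36, 9.68, 11.2 and 11.1 FPKM in WT and at 7.75, 8.26, 6.25 and 7.15 FPKM in MG53-TG. All 4 MG53-TG samples were lower (10.4 ± 0.965 against 7.35 ± 0.864 FPKM, exact permutation p = 0.0286). The end total less this start row was 9.22, 9.30, 10.3 and 11 FPKM in WT and 9.78, 8.86, 6.49 and 7.10 FPKM in MG53-TG, and here the groups overlapped (exact permutation p = 0.114). The start row made up 51.0 ± 0.925% of the end total in WT and 47.9 ± 2.60% in MG53-TG, where the highest MG53-TG sample (50.2%) was just under the lowest WT sample (50.3%). The share's exact permutation p was 0.0286, but these quantities were chosen after the values were seen. Inclusion of a skipped exon of 97 bases was close to this share, at 50.4%, 51%, 53.1% and 50.5% in WT and 44.3%, 48.6%, 49.5% and 50.3% in MG53-TG. Whether the start row follows this exon or a promoter was not tested.

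Cdkn1a (ENSMUSG00000023067, chr17:29090976-29100727, plus strand) encodes p21, the CDK inhibitor through which p53 halts the cell cycle. It was the most abundant member, at 90.2, 104, 160 and 120 FPKM in WT and 146, 126, 128 and 141 FPKM in MG53-TG. The groups overlapped, because WT sample 3 was the highest of all 8, and the MG53-TG samples lay closer together than the WT samples. The means were 118 ± 30.2 and 135 ± 9.82 FPKM, with a log2 fold change of 0.22 (SE 0.16, 95% interval -0.15 to 0.59) that did not pass (adjusted p = 0.300, two-sided exact permutation p = 0.314). Without WT sample 3 the log2 fold change was 0.37 with an adjusted p of 0.0389, and no other alternative passed, with 0.41 under median-of-ratios scaling and 0.06 under quantile normalization. The 3 genes most like Cdkn1a over the 8 samples were Fam214b (r = 0.963), Rab31 (r = 0.924) and Dcun1d2 (r = 0.904), and these were the only 3 of 8373 genes with an r above 0.9.

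The start rows of Cdkn1a varied far more between samples than its total. The upstream first exon (chr17:29090976-29091101), just after the p53 site printed above, stood at 0.0157, 0.0196, 98.6 and 68.6 FPKM in WT and at 9.52, 14.4, 0.0195 and 0.0207 FPKM in MG53-TG. It was high in WT samples 3 and 4, lower in MG53-TG samples 1 and 2, and close to 0 in the other 4 samples. Its share of all start rows was 29.7 ± 34.4% in WT and 4.49 ± 5.53% in MG53-TG, with no difference that passed (exact permutation p = 0.286, adjusted p = 0.967).

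The downstream first exon begins 2793 bases further on, with a short row (chr17:29093769-29093861) and an overlapping long one (chr17:29093781-29094041). The short row took 37.1%, 81.6%, 37.9% and 42.0% of the start rows in WT and 89.9%, 84.4%, 98.3% and 96.0% in MG53-TG. All 4 MG53-TG samples were above all 4 WT samples, although WT sample 2 came near them. The mean share was 49.7 ± 21.4% in WT and 92.2 ± 6.24% in MG53-TG, 42.5 percentage points higher, with an exact permutation p of 0.0286 that did not hold over the 7 shares tested (adjusted p = 0.200). In FPKM, the short row was 33.5, 84.5, 60.6 and 50.3 in WT and 131, 106, 126 and 135 in MG53-TG. The long row was 56.0 and 18.5 FPKM in WT samples 1 and 2, had no row in WT samples 3 and 4, and stood at 4.65, 5.09, 1.97 and 4.65 FPKM in MG53-TG.

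Both downstream rows together, a sum chosen after the values were seen, were 89.5, 103, 60.6 and 50.3 FPKM in WT and 136, 112, 127 and 140 FPKM in MG53-TG. On this sum the groups did not overlap, with 75.9 ± 24.6 FPKM in WT and 129 ± 12.6 FPKM in MG53-TG (exact permutation p = 0.0286). WT sample 3, the highest by the gene total, was the second lowest here. How an estimate divides reads of a shared body among overlapping first exons can move such rows, and this was not tested.

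**Figure D2:**
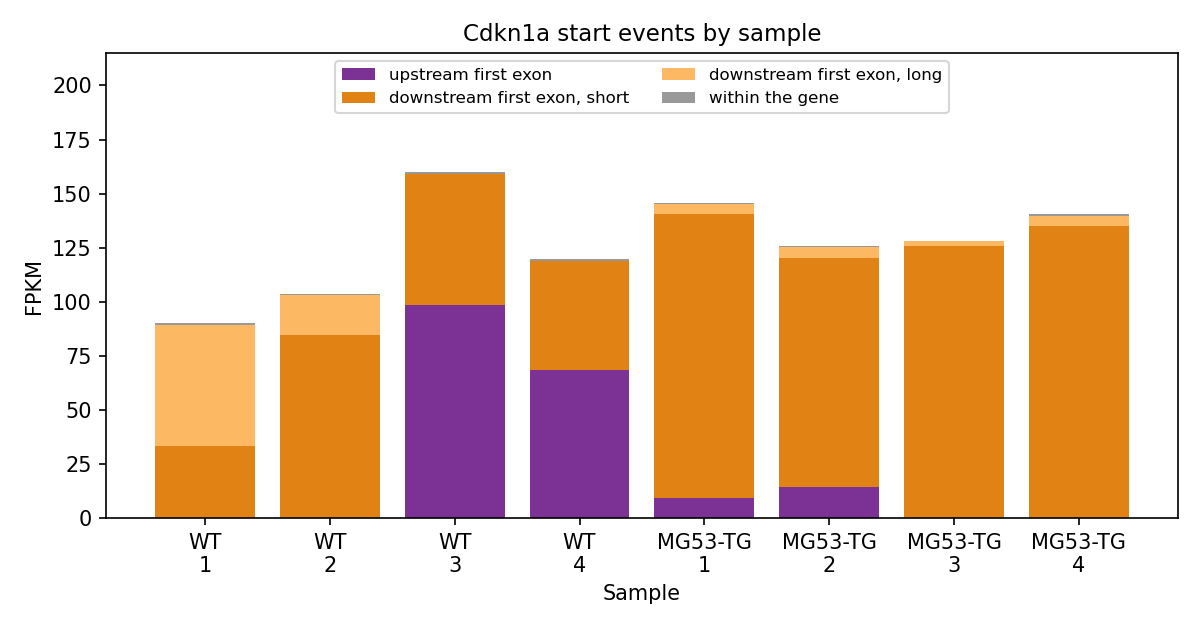
FPKM of the 4 start rows of Cdkn1a stacked for each of the 4 WT and 4 MG53-TG samples. The upstream first exon (purple) reaches 98.6 and 68.6 FPKM in WT samples 3 and 4, and the downstream first exon (orange shades) makes up most of every MG53-TG bar.

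Cdkn1b (ENSMUSG00000003031, chr6:134920401-134925513, plus strand) encodes p27, the CDK inhibitor that keeps resting cells out of the cell cycle and is largely controlled by degradation of the protein. It stood at 32.1, 32.1, 29.6 and 32.7 FPKM in WT and at 21.6, 27.0, 22.2 and 22.3 FPKM in MG53-TG. The WT samples were nearly level, and every MG53-TG sample was below them, with MG53-TG sample 2 the highest of its group. The means of 31.7 ± 1.37 and 23.3 ± 2.51 FPKM gave a log2 fold change of -0.43 (SE 0.10, 95% interval -0.65 to -0.21, adjusted p = 0.00746, two-sided exact permutation p = 0.0286). Its end rows, at 29.3, 27.7, 27.8 and 29.9 FPKM in WT and 17.8, 22.7, 17.4 and 17.1 FPKM in MG53-TG, showed the same order with a log2 fold change of -0.60. Median-of-ratios scaling left a log2 fold change of -0.25, whose adjusted p of 0.0544 missed the threshold.

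Cdkn1c (ENSMUSG00000037664, chr7:143458339-143461050, minus strand) encodes p57, the third CIP/KIP inhibitor, and is expressed from the maternal allele. It was the lowest member, at 1.10, 1.84, 1.03 and 1.26 FPKM in WT and 1.92, 2.03, 0.793 and 0.924 FPKM in MG53-TG. The MG53-TG samples split into a high and a low pair around the WT samples. The means of 1.31 ± 0.369 and 1.42 ± 0.648 FPKM did not differ beyond their spread (log2 fold change 0.04, 95% interval -0.44 to 0.51, adjusted p = 0.90). The shares of its 2 main start rows did not pass either (exact permutation test, adjusted p = 0.967 and 0.971).

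Ccng1 (ENSMUSG00000020326, chr11:40748552-40755311, minus strand) encodes cyclin G1, a p53 target without a firm link to a CDK. It stood at 62.7, 71.9, 95.4 and 82.6 FPKM in WT and at 65.1, 75.7, 66.8 and 70.7 FPKM in MG53-TG. WT samples 3 and 4, where the upstream Cdkn1a exon was highest, were the highest, and the groups overlapped. In MG53-TG samples 1 and 2, where that exon stood at 9.52 and 14.4 FPKM, Ccng1 was the lowest and the highest of its group. The means of 78.1 ± 14.1 and 69.6 ± 4.71 FPKM gave a log2 fold change of -0.15 (SE 0.13, 95% interval -0.45 to 0.15) that did not pass (adjusted p = 0.376). Under median-of-ratios scaling it was 0.04.

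Bax (ENSMUSG00000003873, chr7:45461697-45466898, minus strand) encodes the pore-forming effector of mitochondrial apoptosis. The files name its rows for the neighbouring gene Dhdh (ENSMUSG00000011382), and its value rests on exon boundaries alone, in a fit of genes placed that way. Its end row stood at 20.5, 28.3, 32.8 and 54.3 FPKM in WT and at 30.6, 55.9, 16.2 and 34.6 FPKM in MG53-TG. The samples scattered widely in both groups, which covered the same range. The means of 34.0 ± 14.5 and 34.3 ± 16.4 FPKM differed by a log2 fold change of -0.03 (SE 0.38, 95% interval -0.89 to 0.84, adjusted p = 0.961), and this interval leaves room for a change in either direction.

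**Figure D3:**
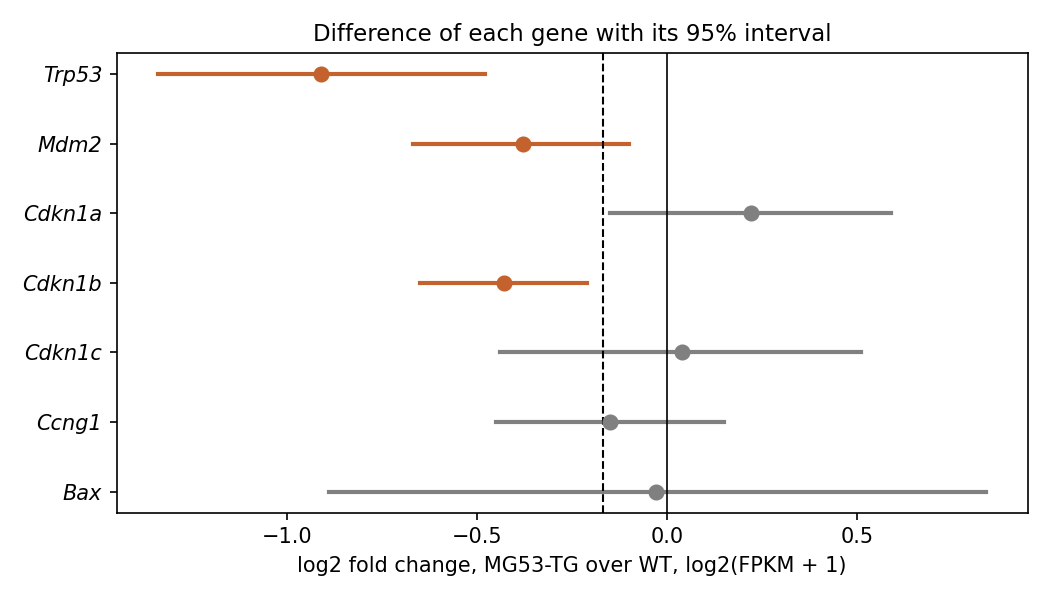
The log2 fold change of MG53-TG over WT for each of the 7 genes with its 95% interval from limma, in orange where the adjusted p passed and in grey where it did not. The dashed line is the median of all genes, -0.17, and the intervals of Trp53 and Cdkn1b lie wholly below it.

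In order of the mean level in WT, the members ran from Cdkn1a (118 FPKM) over Ccng1 (78.1), Trp53 (50.8), Bax (34.0), Cdkn1b (31.7) and Mdm2 (20.3) to Cdkn1c (1.31 FPKM). FPKM is per length of transcript, so levels from the same kind of row can be set side by side. Those of Mdm2 and Bax are end rows and the others start rows, and the Mdm2 start row in WT was 10.4 ± 0.965 FPKM. Bax overlapped its neighbours Trp53 and Cdkn1b in the WT samples, and Ccng1 at its highest passed the lowest Cdkn1a sample. In MG53-TG the order was Cdkn1a (135 FPKM), Ccng1 (69.6), Bax (34.3), Trp53 (27.5), Cdkn1b (23.3), Mdm2 (15.4) and Cdkn1c (1.42 FPKM), with Trp53 below Bax by its mean. The place of Bax rests on its end row, and its main start row was lower, at 10.6, 18.1, 10.3 and 43.5 FPKM in WT and 9.58, 37.4, 11 and 29.1 FPKM in MG53-TG. By the values ranked here, Trp53, Bax and Cdkn1b overlapped in the MG53-TG samples, whereas Cdkn1b and Mdm2 did not. That separation sets Cdkn1b start rows against Mdm2 end rows. By end rows Cdkn1b (17.1 to 22.7 FPKM) and Mdm2 (12.7 to 17.5 FPKM) overlapped in MG53-TG. Across the WT samples the spread was 3.88% of the mean for Trp53 and 4.34% for Cdkn1b, against 25.5% for Cdkn1a and 42.6% for Bax.

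The wider set of 40 p53 target genes tested moved in both directions. Of these, 6 rose, 11 fell and 23 did not pass, that is 15.0% and 27.5% beside 15.5% and 29.2% of all genes, and their median log2 fold change of -0.10 stood beside -0.17 for all genes. Without WT sample 4, or without MG53-TG sample 3, 11 of the targets passed in all. Abcb1a, a drug efflux pump, rose the most, from 37.6 ± 3.15 to 89.8 ± 2.14 FPKM (log2 fold change 1.24). Fas, a death receptor, rose from 1.25 ± 0.233 to 3.04 ± 0.700 FPKM, and Ephx1, a microsomal epoxide hydrolase, from 68.7 ± 15.2 to 122 ± 18.8 FPKM. Ckap2, a spindle protein, fell from 23.1 ± 2.94 to 10.3 ± 5.90 FPKM, Plk2, a polo-like kinase, from 9.86 ± 1.42 to 4.76 ± 1.02 FPKM, and Apaf1, the scaffold of the apoptosome, from 6.20 ± 0.456 to 2.85 ± 0.333 FPKM. Gdf15, a secreted stress cytokine named after its values were seen, was at 4.43, 7.24, 41.3 and 13.4 FPKM in WT and at 3.72, 6.19, 1.99 and 1.58 FPKM in MG53-TG. It fell by 1.68 on the log2 scale (adjusted p = 0.0491) although the groups overlapped, and WT sample 3, the highest for Cdkn1a and Ccng1, was also the highest for Gdf15.

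Among 25 regulators of p53 and DNA damage kinases, 1 rose, 9 fell and 15 did not pass, with a median log2 fold change of -0.45. The 4% that rose and the 36% that fell stood beside 15.5% and 29.2% of all genes. From end rows alone 4 genes passed in all. The DNA damage kinase genes Atm and Atr fell, Atm from 4.49 ± 0.466 to 1.97 ± 0.510 FPKM and Atr from 4.33 ± 0.522 to 1.51 ± 0.530 FPKM, whereas the checkpoint kinase gene Chek1, at 4.08 ± 1.46 and 2.80 ± 2.19 FPKM, did not pass (adjusted p = 0.302). Chek2 (17.5 ± 2.01 to 9.90 ± 3.50 FPKM) and Prkdc (2.30 ± 0.122 to 1.47 ± 0.275 FPKM) fell. Rchy1, a ubiquitin ligase for p53, rose from 19.0 ± 1.75 to 24.5 ± 1.64 FPKM. Mdm4, the partner of Mdm2, was at 22.3 ± 4.08 FPKM in WT and 17.6 ± 4.13 FPKM in MG53-TG and did not pass (adjusted p = 0.191).

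Of 5 CDK inhibitor genes tested, Cdkn1b and Cdkn2c fell and 3 did not pass, with a median log2 fold change of -0.43. The 2 genes that fell make 40% of the list, beside 29.2% of all genes. Leaving out any 1 of WT samples 1, 2 and 4 or MG53-TG samples 3 and 4 left 1 of them passing, as did quantile normalization, pseudocount 0.1, no filter, start rows alone or end rows alone, and median-of-ratios scaling left 0. Without WT sample 3, Cdkn1b and Cdkn1a passed and Cdkn2c did not. Cdkn2c, the INK4 inhibitor p18, fell from 7.16 ± 0.544 to 4.75 ± 1.60 FPKM (log2 fold change -0.55, adjusted p = 0.0485). Cdkn2d, the INK4 inhibitor p19, scattered from 0.181 to 7.20 FPKM in WT and from 0.00941 to 3.50 FPKM in MG53-TG. In a wider list of 34 cell cycle genes, which holds cyclins, CDKs, RB and E2F genes and their regulators, 19 fell, 0 rose and 15 did not pass (55.9% lower beside 29.2% of all genes), with a median log2 fold change of -0.94. The mitotic cyclins Ccna2 (64.8 ± 2.93 to 19.3 ± 10.9 FPKM), Ccnb1 (32.0 ± 2.92 to 9.57 ± 5.50 FPKM) and Ccnb2 (54.1 ± 2.25 to 16.6 ± 7.79 FPKM) fell the most. Among the G1 partners of the inhibitors, named after their values were seen, Cdk6 (22.7 ± 8.53 to 8.66 ± 2.87 FPKM, log2 fold change -1.28, adjusted p = 0.00796) and Ccnd2 (72.0 ± 4.22 to 37.9 ± 16.8 FPKM, -1.03, adjusted p = 0.026) fell. Cdk4 (-0.05, adjusted p = 0.848), Cdk2 (-0.95, adjusted p = 0.0766), Ccnd1 (-1.19, 0.0875), Ccnd3 (-0.02, 0.936), Ccne1 (-0.85, 0.18) and Ccne2 (-1.09, 0.0718) did not pass.

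Of 14 BCL-2 family genes, to which Bax belongs, 2 rose, 5 fell and 7 did not pass, with a median of -0.22. These 14.3% and 35.7% stood beside 15.5% and 29.2% of all genes, and 2 to 5 genes passed when any 1 sample was left out. The BH3-only genes Bad (8.06 ± 1.47 to 17.3 ± 5.62 FPKM) and Bmf (0.432 ± 0.208 to 0.962 ± 0.186 FPKM) rose. Bnip3, linked to mitophagy, fell from 123 ± 5.40 to 83.4 ± 27.0 FPKM, Bok from 10.1 ± 1.44 to 7.21 ± 1.42 FPKM, and the p53 target Pmaip1, also called Noxa, from 30.1 ± 5.45 to 22 ± 2.79 FPKM. Bak1, which forms pores as Bax does, fell from 38.2 ± 1.35 to 31.4 ± 2.03 FPKM, and was named after its values were seen.

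**Figure D4:**
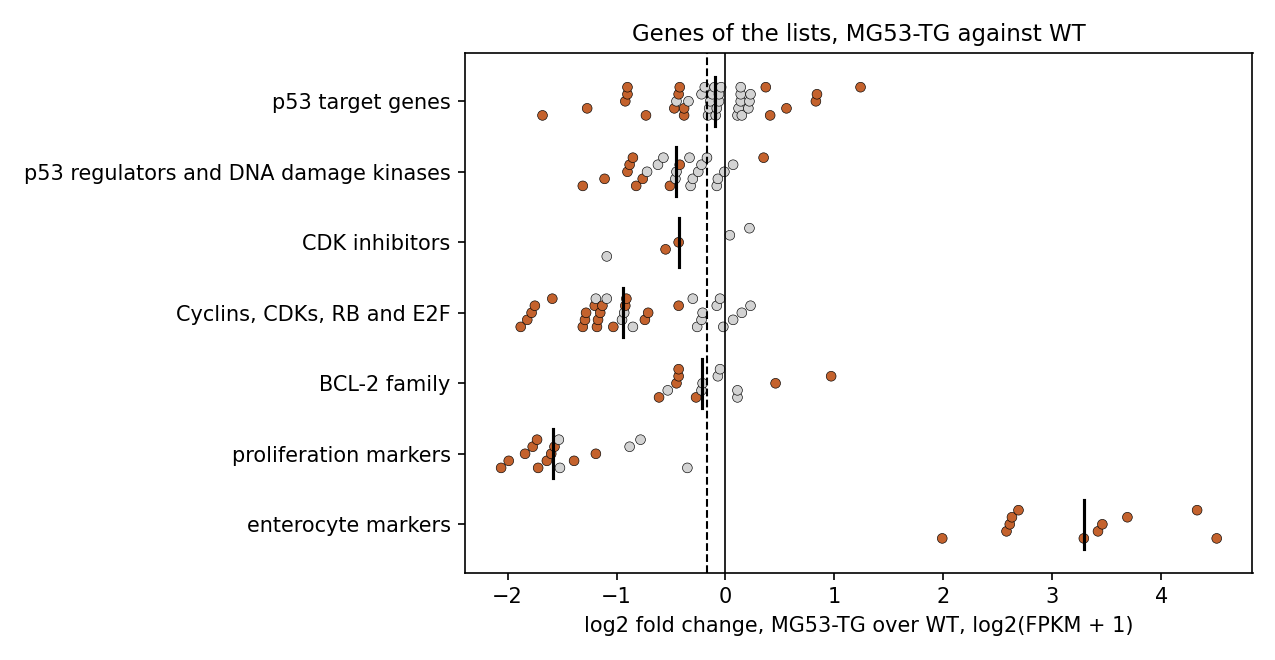
The log2 fold change of MG53-TG over WT for each gene tested in 7 lists, in orange where the adjusted p passed and in grey where it did not, with the median of each list as a black bar. The dashed line is the median of all genes, -0.17, and p53 target genes lie on both sides of it, whereas proliferation markers lie below 0 and enterocyte markers above 0.

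Cell type markers moved with the genotype beside these lists. Of 16 proliferation markers 11 fell and 5 did not pass (median -1.58), that is 68.8% lower beside 29.2% of all genes. Without any 1 of the WT samples or MG53-TG sample 3, 3 to 5 of them passed. Mki67 was at 58.1 ± 6.66 and 18.8 ± 12.4 FPKM, Mcm7 at 49.8 ± 7.17 and 16.8 ± 13.9 FPKM and Mcm5 at 26.7 ± 1.95 and 9.26 ± 8.48 FPKM. Of 7 stem cell markers 5 fell (71.4% beside 29.2% of all genes), among them Axin2, Ascl2 and Olfm4, the last from 235 ± 61.4 to 28.7 ± 29.3 FPKM. Lgr5 (10.7 ± 7.48 and 8.05 ± 5.91 FPKM, adjusted p = 0.53) and Smoc2 (adjusted p = 0.0916) did not pass. The enterocyte gene Fabp1 rose from 256 ± 38.9 to 5810 ± 361 FPKM. In bulk RNA, fewer cells of a type and less RNA per cell cannot be told apart, and the part of these marker changes in the falls of Trp53, Mdm2 and Cdkn1b was not tested. Markers of mesenchyme summed to 1.80 to 3.24 FPKM in WT and 1.31 to 5.58 FPKM in MG53-TG. Those of immune cells summed to 3.77 to 9.24 FPKM in WT and 0.609 to 1.47 FPKM in MG53-TG, most of it Cd68, which fell from 6.14 ± 2.37 to 0.935 ± 0.340 FPKM, and Pdgfra, Acta2 and Csf1r had no value. Col1a2 and Col3a1 passed as higher, listed at 0 in WT and between 0.739 and 2.07 FPKM in 3 MG53-TG samples, with MG53-TG sample 1 missing, and 0 or 1 of them passed without any 1 of these 3 samples. With absent rows as 0, from start rows alone or with a mean of at least 2 FPKM, 0 passed. The immune gene Cd3e was at or near 0 in every sample.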

How the data were processed

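RNA of crypt organoids was sequenced in 4 WT and 4 MG53-TG samples. According to the submitters' processing notes, reads were trimmed with cutadapt 1.9.1 and mapped with HISAT2 2.0.1 to mm10, and HTSeq 0.6.1 and DESeq2 were used by the authors. The deposited values are FPKM per transcript event. The tool that made the event tables is not given in the sources used here.

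A start or end row was given to a gene where its identifier and an exon boundary in the GENCODE M21 annotation of GRCm38 both fitted, which held for 85.3% of 49773 rows. Another 4.1% of rows lay at exons of another gene than the one named. A gene's value was the sum of its start rows, or of its end rows where their mean was higher. A gene without a row in a sample was missing where its group's median was at least 0.5 FPKM and 0 otherwise, and 492 genes had a missing value. No member had one.

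Groups were compared in limma 3.58.1 under R 4.3.3, on log2(FPKM + 1), with lmFit and a trended eBayes. The 10271 genes averaging 0.5 FPKM or more entered the fit, p-values were adjusted over all of them by Benjamini and Hochberg's method, and the threshold was 0.05. A fold change on this scale understates that of low genes. The fit was tested on simulated data with known changes. Shares of start or end rows, with a mean of 5% to 95%, and single sums were compared by two-sided exact permutation tests in scipy 1.17.1. Promoter sequences are from RefSeq (GRCm38.p6).

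The members and lists were chosen with earlier results of these data known. Genes named from a list were up to 3 with the largest rise and 3 with the largest fall among those that passed and had groups without overlap, and for Trp53 and Cdkn1a the 3 most like genes averaging 2 FPKM or more. Other genes named from the lists, such as Gdf15, Bak1, Mdm4, Cdkn2d, Cdk2, Cdk4, Cdk6, the D and E cyclins, Chek1, Chek2, Prkdc, Lgr5, Smoc2, Krt8, Col1a2, Col3a1 and Cd3e, were chosen after their values were seen. Tests on counts were not used, since the values are FPKM. Alternatives are given in the closing section.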

Additional observations from a re-analysis of the deposited data

Results flagged for a closer look

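Over 28 groups of 4 values of the members and their start or end shares, 3 held a sample far from the others, where chance gives about 1.4. Trp53 in WT sample 3 was 47.9 FPKM, apart from 3 WT samples within 51.5 to 52.0 FPKM. Cdkn1b in MG53-TG sample 2 was 27.0 FPKM, above the 21.6 to 22.3 FPKM of the others. The share of the short downstream start row of Cdkn1a in WT sample 2 was 81.6%, against 37.1% to 42.0% in the other WT samples. Neither Trp53 in WT nor Cdkn1b in MG53-TG reached the other group at that sample.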

How the results depend on the processing

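Trp53 passed in the same direction under all 21 alternatives (log2 fold change -1.03 to -0.55), Cdkn1b under 20 of 21 and Mdm2 under 12 of 21, while Cdkn1c, Ccng1 and Bax passed under none and Cdkn1a under 1. Median-of-ratios scaling moved the median of all genes by 0.16 and the share of calls that were higher from 34.6% to 50.2% (44.8% with quantile normalization). It left 1 member passing, with Mdm2 at -0.20, Cdkn1b at -0.25, Cdkn1a at 0.41, Ccng1 at 0.04 and Bax at 0.16, 0 CDK inhibitor genes and 3 BCL-2 family genes. Quantile normalization gave -0.24 for Mdm2, which no longer passed, and 0.06 for both Cdkn1a and Bax, with 1 CDK inhibitor and 4 BCL-2 family genes. With pseudocount 0.1, 1 CDK inhibitor gene passed. With no filter, 1 CDK inhibitor gene, 4 BCL-2 family genes, 7 proliferation markers and 2 immune markers passed. With a mean of at least 2 FPKM, 0 mesenchyme markers did. From start rows alone Bax was 0.10, with 1 CDK inhibitor gene and 0 mesenchyme markers passing. From end rows alone 4 p53 regulators, 1 CDK inhibitor gene and 4 BCL-2 family genes passed, and with absent rows as 0, 0 mesenchyme markers. By identifier alone the downstream Trp53 acceptor's share differed by -1.04 percentage points, against 1.17 in the main analysis. With MG53-TG samples 1 and 2 only, added after seeing the data, Mdm2 was -0.21, Bax 0.36, and 1 CDK inhibitor gene and 1 mesenchyme marker passed. The cause of these shifts was not tested.

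Leaving out each sample in turn gave 3650 to 4865 genes, 11 to 17 p53 targets, 1 to 2 CDK inhibitor genes, 2 to 5 BCL-2 family genes, 3 to 13 proliferation markers and 0 to 2 mesenchyme markers. The log2 fold change ranged from -0.45 to -0.30 for Mdm2, from 0.10 to 0.37 for Cdkn1a, from -0.08 to 0.17 for Cdkn1c, from -0.25 to -0.05 for Ccng1 and from -0.30 to 0.28 for Bax. The difference in share ranged from -5.54 to 0.938 points for the upstream Trp53 acceptor, from -0.941 to 5.53 for the downstream one, from -35.2 to -14.6 for the upstream Cdkn1a start, from 38.3 to 53.1 for its short and from -23.6 to -2.94 for its long downstream row, from -10.8 to 8.71 for the inner Cdkn1c start and from -15.8 to 3.73 for the outer one.

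With the replicate number as a block (replicate block), 4195 genes passed, 4012 of them shared with the 4595 of the fit without it, and Mdm2, at -0.38, did not pass (adjusted p = 0.0848). Deviations of WT and MG53-TG samples with the same number correlated by 0.0917, -0.0031, 0.0937 and -0.0505. Such weak correlations do not show a pairing by number, and they cannot exclude one. The paper names a paired t test for its marker genes in crypt organoids, without saying which samples were paired.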

Other observations

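Chga and Chgb, granule proteins of enteroendocrine cells, rose in MG53-TG from 17.5 ± 2.52 to 42.5 ± 2.53 FPKM and from 96.9 ± 5.94 to 256 ± 29.8 FPKM (SD, n = 4). The Paneth and goblet cell genes Mmp7, Agr2 and Muc2 fell, from 24.1 ± 1.68 to 2.19 ± 0.454 FPKM, from 88.1 ± 12.8 to 13.6 ± 4.94 FPKM and from 25.3 ± 3.71 to 8.94 ± 4.69 FPKM. Of 10 secretory markers 2 rose, 6 fell and 2 did not pass, that is 20% and 60% beside 15.5% and 29.2% of all genes. Among epithelial genes, the brush border protein Vil1 rose from 98.2 ± 8.47 to 213 ± 32.4 FPKM, while Krt18 (474 ± 52.7 to 227 ± 68.1 FPKM), Cdh1 (222 ± 4.94 to 127 ± 7.57 FPKM) and Cdx2 (81.9 ± 2.27 to 54.9 ± 7.68 FPKM) fell. Apoa4 (39.4 ± 2.95 to 838 ± 239 FPKM) and Apoa1 (36.4 ± 3.86 to 507 ± 217 FPKM) rose beside Fabp1.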
